A study of Mus musculus with 2 samples.

Results

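The data described here are 1 two-colour Agilent mouse array that compared regulatory T cells (Tregs) lacking Bcl11b after deletion by Foxp3Cre with wild-type Tregs. The array was taken by its sample label, its wild-type pool being labelled with Cy3 (green) and its Bcl11b-deficient pool with Cy5 (red), and every gene spot that was not a control spot was used. It detected 15181 genes, of 16681 detected on at least 1 of the 2 arrays of the series. The other array made the same comparison after deletion by Cd4Cre, a recombinase active in developing T cells before Foxp3 appears. Both pools of the Foxp3Cre array were sorted cells of mice on the C57BL\6 background, as the labels spell it, and the wild-type pool came from 3 mice. Whether the wild-type mice carried Foxp3Cre is not stated. The deficient pool is labelled as knockout Treg cells, from mice with floxed Bcl11b alleles (Bcl11bF/F) and Foxp3Cre per the design text, and the number of mice, the age and the sorting gate are not given in the sources used here. Of each pool, 825 ng of labelled amplified RNA was used. Foxp3Cre is driven by the gene that defines Tregs, so deletion was directed at cells already expressing Foxp3. There was 1 array and no dye swap, so no difference below has a replicate check or a p-value, and genotype and dye cannot be told apart. The Foxp3Cre name of this array rests on the design text together with the absence of a Foxp3-GFP reporter from its labels.

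Tregs are CD4 T cells that restrain other immune cells, and Foxp3 is the transcription factor that defines them. Resting Tregs share with naive T cells a programme of lymph node homing and quiescence, while effector Tregs exchange it for receptors that lead to tissues and for suppressor molecules such as CTLA-4, the receptor that removes CD80 and CD86 from antigen-presenting cells. Bcl11b is a zinc finger transcription factor that commits precursors to the T cell lineage, keeps natural killer genes silent in T cells, and works with the NuRD corepressor complex and with Runx factors.

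Values are given as log2 signals of each pool after normalization, followed by the log2 ratio (deficient over wild type), which is negative for a lower signal in the deficient pool. The array held 43379 gene spots of 41174 probes, with 54.0% of spots well above background in green, 47.7% in red and 0 saturated. Repeated spots of 1 probe differed by a median SD of 0.071 in log2 ratio, which covers spotting error on this array and not differences between mice. Signals of the same probe on the other array are quoted in places as a level beside this one. The 2 arrays were scaled together only through their average intensities, so such levels carry no test.

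The deleted gene was lower in the deficient pool. The bright probe for Bcl11b read 14.95 in the wild-type pool and 13.14 in the deficient pool, a log2 ratio of -1.82 or 3.52-fold lower. It lies at chr12:109153847-109153906 (mm9, minus strand) and is shown here because its open frame has the spacing of a zinc finger. The capitals mark codons 2 and 5 and codon 18 of its open frame, the spaced cysteine and histidine codons of a C2H2 finger:
Bcl11b, bright probe: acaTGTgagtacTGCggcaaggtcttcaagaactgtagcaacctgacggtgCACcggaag
The other Bcl11b probe lies 3′ of it at chr12:109148932-109148991, and its first 30 bases are rich in A and T:
Bcl11b, other probe: tttattaccttttctattacgtatcgtatg
This probe read 11.14 in the wild-type pool and 10.82 in the deficient pool, a log2 ratio of -0.32. The probes of the targeted gene therefore differed by more than 2-fold in what they read, and the part of the gene removed by Cre is not stated in the labels. Within 5 Mb of the bright probe 80 other genes were detected, with a median log2 ratio of -0.18. Past 2-fold, 2 were higher and 7 lower, which is no more than the shares of 2.94% and 11.5% over all detected genes.

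Foxp3 was measured with little difference, at 10.02 in the wild-type pool and 9.82 in the deficient pool, a log2 ratio of -0.20. Its level in the wild-type pool was low beside that of the same probe in the wild-type pool of the other array (12.50), and so were those of other Treg genes. Of the 34 detected genes of a Treg signature list, 22 were at least 2-fold lower in this wild-type pool than in the other one and none was 2-fold higher, beside 8.57% lower and 12.2% higher over all 15181 genes, with a median difference of -1.27 in log2 signal, against 0.12 for all genes. Itgae (CD103) read 11.57 here and 14.56 there, and Il2ra, the high-affinity IL-2 receptor chain, 11.25 and 13.02. Markers of other lymphocytes lay the other way. Cd8a read 12.22 here and 10.10 there, Ms4a1 (CD20) 14.84 and 12.71, and 12 of 18 detected B cell markers were at least 2-fold higher in this wild-type pool, beside 12.2% of all genes. The deficient pool of this array carried Cd8a and Ms4a1 at much the same levels as its wild-type partner, with log2 ratios of 0.08 and 0.20. In a bulk sample, fewer cells of a type and less RNA per cell cannot be told apart, and the part that other lymphocytes play in the ratios below was not tested.

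Across the 15181 detected genes the log2 ratio had a median of -0.08, quartiles of -0.61 and 0.37 and a range from -4.74 to 3.34. The deficient pool was 2-fold higher or more for 446 genes, 2.94% of those detected, and 2-fold lower or more for 1749, 11.5%. At 4-fold the numbers were 24 and 84. Of the genes past 2-fold, 20.3% were thus higher, a split that moved to 66.7% with median centring in place of loess and to 36.3% with the scanner software's own ratio. In the wild-type pool alone 1627 genes were well above background, and in the deficient pool alone 106. Each was set against the lowest signal well above background in the other channel, or its own signal there if higher. By that bound 122 and 22 of them differed by at least 2-fold. The lowest such signal was 7.61 in green and 7.97 in red. The most raised genes were Xlr3c, an X-linked lymphocyte-regulated gene, and Retnla, a resistin-like molecule of type 2 inflammation. Xlr3c read 7.75 in the wild-type pool and 11.09 in the deficient pool (10.2-fold higher), from 1 probe that may also read its close copies. Retnla was not well above background in the wild-type pool and read 10.47 in the deficient pool, at least 7.28-fold higher, where "at least" sets the bright pool against the lowest signal well above background in the other channel. The most reduced were Chia1, an acidic chitinase, at 13.67 in the wild-type pool and 8.93 in the deficient pool, and Bpifa2, a salivary secretory protein, at 14.19 in the wild-type pool and 9.61 in the deficient pool, 26.8-fold and 23.9-fold lower.

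**Figure D1:**
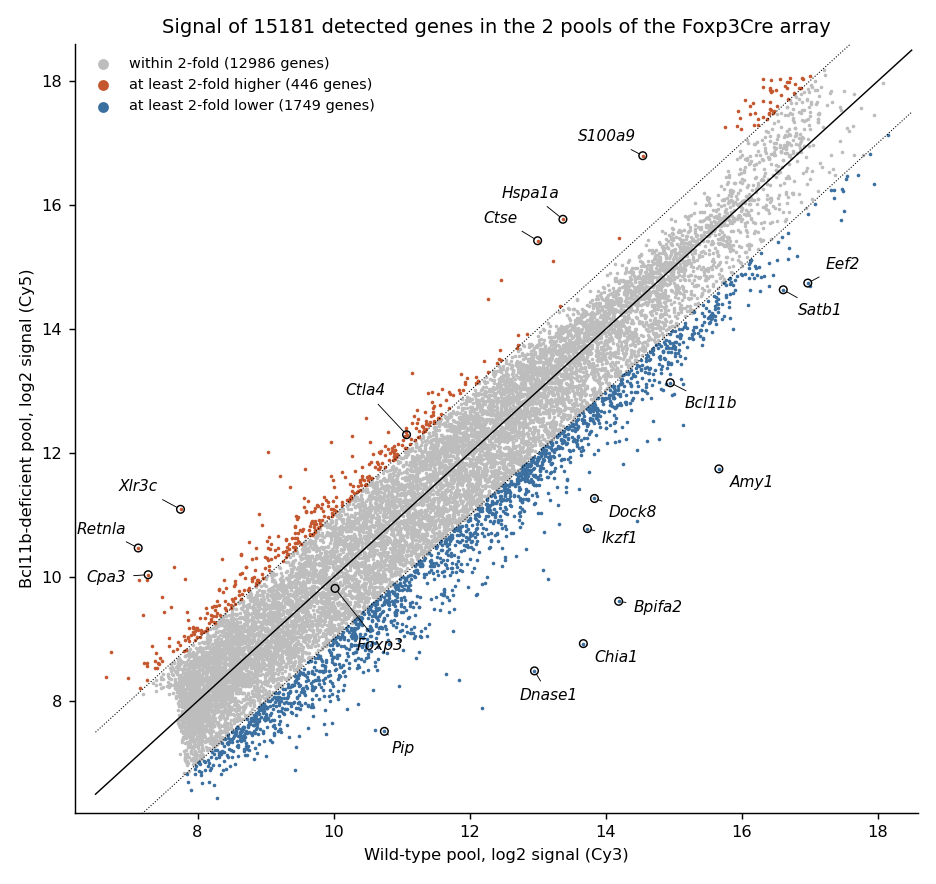
Log2 signal of each detected gene in the wild-type pool (x axis, Cy3) and in the deficient pool (y axis, Cy5), with the solid line at equality and dotted lines at 2-fold. The 1749 blue genes below outnumber the 446 orange genes above, Bcl11b lies below the lower line, Foxp3 near equality, and some raised genes form a cluster at the brightest end.

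The gene lists below are described by how many detected members passed 2-fold, beside the background of 2.94% higher and 11.5% lower, and by their median, beside -0.08 for all genes. With median centring the background was 13.5% higher and 6.73% lower, and list counts under that scaling are read against those shares. In the Treg signature list 3 of 34 detected genes were 2-fold higher and none was 2-fold lower, with a median of 0.24. The 3 were Ctla4, Gpm6b and Klrg1. Ctla4 read 11.07 in the wild-type pool and 12.30 in the deficient pool, a log2 ratio of 1.22. Klrg1, a lectin-like receptor of highly differentiated T cells, read 10.80 in the wild-type pool and 12.35 in the deficient pool (2.92-fold higher). Penk, the proenkephalin gene, came just under the threshold at 0.98, while the signature genes Gpr83, a receptor, and Ecm1, a secreted matrix protein, lay at -0.94 and -0.91. Ikzf2 (Helios), Tnfrsf18 (GITR), Tnfrsf4 (OX40) and Icos lay between 0.15 and 0.62. Ratios were above 0 for 19 of the 34 genes. With median centring 13 were 2-fold higher and 0 lower, and the median of the list lay above that of all genes under each of the 3 scalings.

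Genes of effector and tissue Tregs were higher as a list. Of 34 detected, 28 had ratios above 0, 7 were 2-fold higher and 0 were 2-fold lower, and the median was 0.52. Il1rl1, the receptor for the alarmin IL-33, read 9.18 in the wild-type pool and 10.67 in the deficient pool, 2.82-fold higher. Ccr3, a receptor for eotaxins, read 11.18 in the wild-type pool and 12.60 in the deficient pool, and Gpr15, a receptor for homing to the large intestine, 9.03 in the wild-type pool and 10.31 in the deficient pool. Id2, an inhibitor of E proteins, was 2.42-fold higher at 14.20 in the wild-type pool and 15.48 in the deficient pool. Anxa1, an annexin, was 2.7-fold higher and Ccr2, the receptor for monocyte chemoattractant proteins, 2.25-fold. Several of these genes are also expressed by eosinophils, monocytes or natural killer cells, whose markers are given further on. Of 19 suppressor effectors, Ctla4 and Il1rl1 passed 2-fold. Gzmb, a granzyme, lay at 0.996, Fgl2, a secreted fibrinogen-like protein, at 0.95, and Il10, the suppressive cytokine, at 0.78, from 8.98 in the wild-type pool and 9.75 in the deficient pool. Adora2a, the adenosine receptor, lay at -0.89 and Tgfb1 at -0.50.

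Checkpoint and costimulatory receptors had a median of 0.51 over 26 detected members, with 3 genes 2-fold higher and 2 lower, and with median centring 14 were higher and 0 lower. Beside Ctla4 the higher genes were Cd244a, a SLAM family receptor also carried by natural killer cells (1.04), and Cd80, a ligand of CTLA-4. Cd80 was above background in the deficient pool alone, at 8.70, at least 2.14-fold higher. Cd27, a costimulatory receptor of naive and memory T cells, read 14.10 in the wild-type pool and 13.08 in the deficient pool (2.03-fold lower), and Ly9, a SLAM family receptor, lay at -1.13. Pdcd1 (PD-1) and Lag3 lay at -0.23 and -0.34, inside the range of most genes.

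The naive and quiescence list went the other way. None of its 35 detected genes was 2-fold higher and 14 were 2-fold lower, 40.0% beside a background of 11.5%, with a median of -0.83. Satb1, a chromatin organiser of thymocytes, read 16.61 in the wild-type pool and 14.64 in the deficient pool (3.94-fold lower), and its other probe gave -1.56. Foxo1, the factor that maintains homing receptors, read 15.71 in the wild-type pool and 14.17 in the deficient pool (2.92-fold lower), and Bach2, a repressor of effector genes, 13.47 in the wild-type pool and 12.05 in the deficient pool (2.67-fold). Tcf7 (TCF-1) read 16.19 in the wild-type pool and 15.02 in the deficient pool, Foxp1 14.64 in the wild-type pool and 13.35 in the deficient pool, and Klf2, which controls S1pr1, 17.54 in the wild-type pool and 16.42 in the deficient pool. S1pr1, the receptor for leaving lymph nodes, lay at -1.17, but the survival receptor Il7r at 0.14 showed little difference. With median centring 4 of these genes were 2-fold lower and 4 higher, and the sign of Klf2 turned (0.25), so the count for this list depends on the scaling. Its median stayed below that of all genes under each scaling.

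Receptors for IL-6 and related cytokines were the list with the lowest median, -1.07, among the T cell lists drawn by list. Of 17 detected genes 9 were 2-fold lower and 0 higher, and this count was 9 with the software ratio and 4 with median centring. Il6ra, the IL-6 receptor, read 11.37 in the wild-type pool and 9.06 in the deficient pool, and its 2 probes, at chr3:89680743-89680802 and chr3:89690491-89690550 (mm9), gave -2.31 and -2.27. Il4ra, the shared chain of the IL-4 and IL-13 receptors, read 14.98 in the wild-type pool and 12.94 in the deficient pool (4.1-fold lower). Il6st (gp130), the signalling partner of Il6ra, lay at -1.41, and Il21r, Il27ra and Il10ra at -1.26, -1.27 and -1.07. The kinase Tyk2 and the transcription factors Stat3 and Stat6 that these receptors use lay at -2.02, -1.64 and -1.39. Stat3 read 15.17 in the wild-type pool and 13.53 in the deficient pool. Jak1, Jak2 and the interferon gamma receptor chains stayed within 2-fold, from -0.87 to -0.18, and Lifr was the 1 member above 0 (0.51). In the IL-2 and STAT5 list 3 of 19 genes were 2-fold lower, 15.8% beside a background of 11.5%. These were Pim1 and Pim2, survival kinases induced by STAT5 (-1.82 and -1.29), and Stat5b (-1.19), while the receptor chains Il2ra, Il2rb and Il2rg lay at -0.37, -0.76 and -0.58. With median centring 2 genes of this list were 2-fold lower and 2 higher. Its median then lay -0.14 from that of all genes, against -0.67 with loess.

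T cell receptor signalling genes were lower as well, 11 of 30 by at least 2-fold and 0 higher, with a median of -0.92. Vav1, the exchange factor next to the receptor, read 14.15 in the wild-type pool and 12.18 in the deficient pool (3.91-fold lower), and its other probe gave -1.43. Zap70, the kinase recruited to the receptor, read 14.87 in the wild-type pool and 13.52 in the deficient pool, and Prkcq (protein kinase C theta) 14.99 in the wild-type pool and 13.73 in the deficient pool. Cd5 and Cd6, related inhibitory receptors of T cells, read 17.36 in the wild-type pool and 16.11 in the deficient pool and 17.47 in the wild-type pool and 15.77 in the deficient pool, and the ubiquitin ligase Cblb was below background in the deficient pool, at least 3.27-fold lower. Lck (-0.94) and Lat (-0.88) came close to 2-fold, Lcp2 (-0.06), Ptprc (0.29) and Malt1 (-0.08) did not, and Themis was at 0.85. With median centring 4 genes of the list were 2-fold lower and 3 higher, and the sign of Cd5 turned (0.07). Of the receptor complex itself, the chains Cd3e, Cd3d and Cd3g lay at -0.05, 0.23 and 0.33, the zeta chain Cd247 at -0.69 and the coreceptor Cd4 at -0.52. The probe named Tcra in the file read 14.25 in the wild-type pool and 11.83 in the deficient pool (5.36-fold lower), and gave -2.67 on the other array.

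Regulators of the T cell lineage showed differences within 2-fold for the Runx partners of Bcl11b and larger ones for some other members. Runx1 and Cbfb lay at 0.34 and 0.30 and Runx3 at -0.99. Ikzf1 (Ikaros) read 13.73 in the wild-type pool and 10.78 in the deficient pool, 7.72-fold lower, from a probe across a splice junction at chr11:11658319-11661278 (mm9), while Ikzf2, Ikzf3 and Ikzf5 lay between 0.32 and 0.62. Fli1, an ETS factor, lay at -1.20 and Ets1 at -0.94. Gata3 and Tbx21, which direct T helper fates, lay at -0.60 and -0.57, and Bcl11a, the paralogue of Bcl11b, at 0.03. In all, 6 of 38 genes of this list were 2-fold lower, 15.8% beside a background of 11.5%, and Id2 alone was 2-fold higher. With median centring 3 were lower and 3 higher. The list median lay -0.06 from that of all genes under that scaling, against -0.27 with loess.

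Of NuRD subunits and other corepressors, 7 of 23 were 2-fold lower and 1 higher, with a median of -0.76. Mbd3, the methyl-CpG-binding-domain subunit of NuRD, read 12.41 in the wild-type pool and 10.72 in the deficient pool (3.22-fold lower), and its helicase Chd4 and its subunit Mta2 lay at -1.05 and -1.03. Rcor1 (CoREST) and the nuclear receptor corepressor Ncor1 read 14.01 in the wild-type pool and 12.41 in the deficient pool and 15.05 in the wild-type pool and 13.48 in the deficient pool. Hdac2, a deacetylase of the complex, was the exception at 8.85 in the wild-type pool and 10.31 in the deficient pool (2.75-fold higher), while Hdac1 lay at -0.50 and Rbbp4 at -0.00. Among histone and DNA methylation enzymes and remodellers 15 of 37 were 2-fold lower and 0 higher, with a median of -0.84. The H3K4 methyltransferase Kmt2c read 14.47 in the wild-type pool and 12.05 in the deficient pool from its brightest probe, but its 6 probes ranged from -2.42 to -0.42. Dnmt1 and Dnmt3a, the maintenance and new DNA methyltransferases, lay at -1.34 and -1.34, and Ehmt2 (G9a) at -1.46. The core subunits of the H3K27 methyltransferase complex, Ezh2 and Eed, lay above 0, at 0.72 and 0.76.

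**Figure D2:**
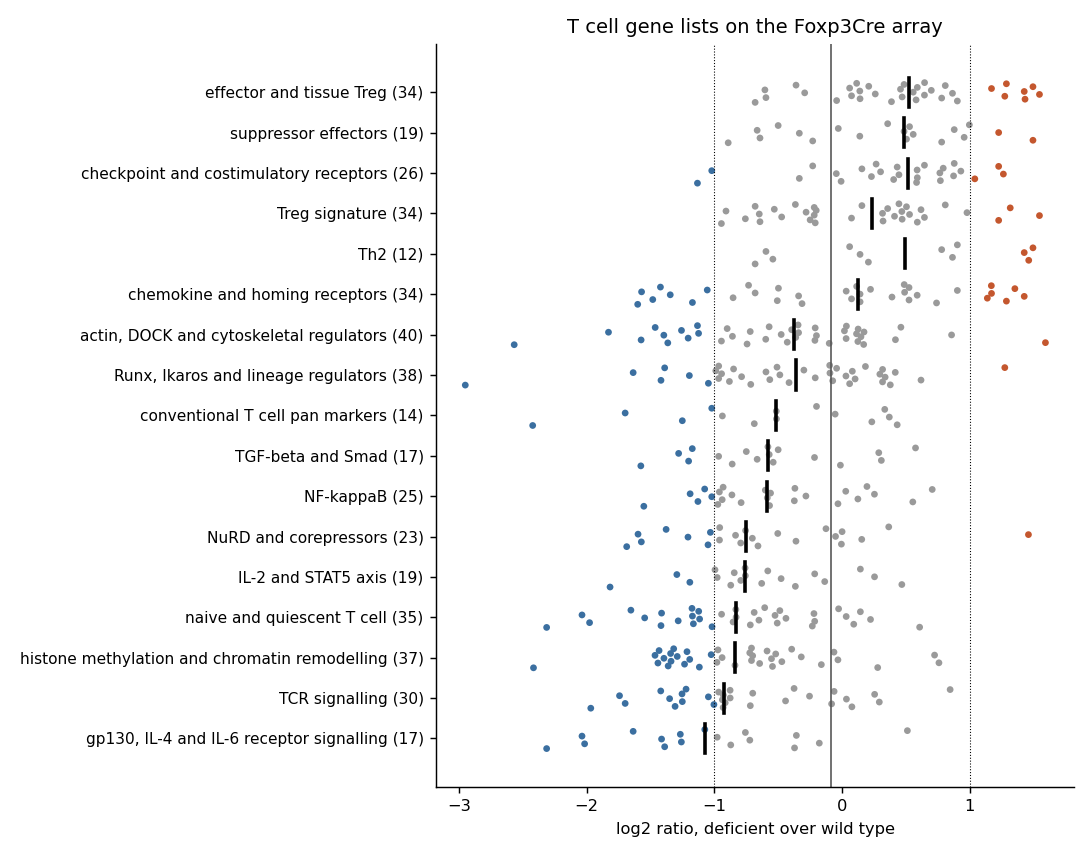
Log2 ratio (x axis, deficient over wild type) of every detected member of 17 T cell gene lists, with the number detected in parentheses, each list's median as a black bar, 2-fold as dotted lines and the median of all genes as a grey line. Effector and tissue Treg genes have a median of 0.52 with 7 members above 2-fold, and IL-6 and IL-4 receptor genes a median of -1.07 with 9 members below it.

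Homing receptors divided in both directions, 6 of 34 being 2-fold higher and 7 lower. Among the higher were the inflammatory chemokine receptors Ccr2 and Ccr3, the gut receptor Gpr15, the decoy receptor Ackr3 and the integrin chain Itgb1. Itgb1 read 11.85 in the wild-type pool and 13.02 in the deficient pool (2.25-fold higher). Lower were the integrin chains Itgb7, Itgal, Itgb2 and Itgb3, the sphingosine phosphate receptors S1pr1 and S1pr4, and the P-selectin ligand Selplg. Itgb7, which pairs with the alpha chains of gut-homing and epithelial integrins, read 17.94 in the wild-type pool and 16.34 in the deficient pool (3.03-fold lower), and Itgal, the alpha chain of LFA-1, 15.53 in the wild-type pool and 14.11 in the deficient pool (2.68-fold). The sign of Selplg turned with median centring (0.07). Ccr7, which guides T cells into lymph nodes, came close to 2-fold at -0.85.

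Actin and DOCK regulators that lymphocytes use to migrate and form contacts included 10 of 40 genes 2-fold lower and 1 higher. Dock2, the exchange factor for Rac in lymphocytes, read 11.79 in the wild-type pool and 10.22 in the deficient pool, and its 2 probes gave -1.57 and -1.56. Dock8, whose loss in people gives an immunodeficiency, read 13.84 in the wild-type pool and 11.27 in the deficient pool from its brightest probe (5.92-fold lower), but its 8 probes ranged from -2.57 to 0.00, and that brightest probe belongs to a cDNA clone and not to the RefSeq mRNA. Fermt3, the activator of leukocyte integrins, lay at -1.83, Ezr (ezrin) at -1.46 and Flna (filamin) at -1.40. Tmsb4x, an actin monomer binder, was higher at 16.43 in the wild-type pool and 18.02 in the deficient pool (3.01-fold), and Actb lay at 0.03. The median of this list was -0.29 from that of all genes with loess, -0.44 with the software ratio and 0.31 with median centring, so no direction can be given for the list.

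Of the type 2 effector T cell list 3 of 12 were 2-fold higher, Il1rl1, Ccr3 and Il4. Il4, which basophils and mast cells make as well, read 8.71 in the wild-type pool and 10.17 in the deficient pool (2.75-fold higher), while Il13 lay at 0.21. Of the type 1 list 2 of 14 detected genes passed 2-fold, the chemokine Ccl3 (1.01) among them, and Ifng lay at 0.78, from 12.63 in the wild-type pool and 13.41 in the deficient pool. Of 16 genes of type 17 and innate-like T cells Il22, a cytokine that acts on epithelia, was the 1 past 2-fold, at 8.76 in the wild-type pool and 10.57 in the deficient pool (3.5-fold higher), with 1.51 from its other probe. Il17f lay at 0.32 and Il23r, above background in the deficient pool alone, was at least 1.68-fold higher. Tnfsf11 (RANKL) was higher on both of its probes, at 1.22 for the brighter.

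Genes of mitosis were higher, 6 of 40 by at least 2-fold and 0 lower, with a median of 0.51. Kif11, the motor that separates spindle poles, read 9.44 in the wild-type pool and 10.99 in the deficient pool (2.93-fold higher), Spc25, a kinetochore subunit, 10.57 in the wild-type pool and 11.99 in the deficient pool, and the checkpoint kinase Bub1 11.15 in the wild-type pool and 12.48 in the deficient pool. Cdk1, Ccnb1 and Ccna2, which drive entry into mitosis, lay at 0.93, 0.95 and 0.90, but Mki67 and Plk1 at -0.71 and -0.20. DNA replication genes had a median of 0.09. Of 40 detected, 1 was 2-fold higher and 5 were lower, shares near the background. With median centring 10 were higher and 0 lower. Ccne2, a cyclin of S phase entry, was 3.04-fold higher at 8.87 in the wild-type pool and 10.47 in the deficient pool, and Pola1 and Rrm2 lay at 0.93 and 0.93, whereas the helicase subunits Mcm2 and Mcm3, the loader Cdt1, the ligase Lig1 and E2f2 were 2-fold lower, from -1.31 to -1.02. Of 20 cohesin and condensin genes 1 was 2-fold higher and 2 were lower, shares near the background, with a median of 0.13. With median centring 6 were higher and 2 lower. Rec8, the meiotic cohesin subunit, read 11.77 in the wild-type pool and 9.48 in the deficient pool (4.9-fold lower), the loader Nipbl lay at -1.69, and Esco2, an acetyltransferase of S phase, at 1.38.

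Cytosolic ribosomal protein genes were mostly above 0. Of 77 detected, 71 had ratios above 0, 19 were 2-fold higher and 1 was lower, with a median of 0.78. Rps16 read 16.05 in the wild-type pool and 17.70 in the deficient pool, and Rps14 16.31 in the wild-type pool and 17.91 in the deficient pool. These are among the brightest probes of the array, where the ratio depended most on the scaling. The median of this list relative to all genes was 0.86 with loess, 0.51 with the software ratio and 2.02 with median centring, and the number 2-fold higher was 19, 9 and 74. Rpl4, the 1 gene 2-fold lower at -1.01, lay at 0.01 with median centring. Ribosomal proteins also have many near-identical pseudogene copies, from which these probes may not be distinct. Mitochondrial ribosomal proteins, detected at lower signals, had a median of 0.13 with 0 of 77 past 2-fold either way, and with median centring 20 were 2-fold higher. Among elongation and initiation factors, a list chosen after its values were seen, Eef2, the translocase of elongation, read 16.97 in the wild-type pool and 14.74 in the deficient pool (4.69-fold lower). Its 3 probes gave -3.50, -2.23 and -1.64. The scaffold Eif4g1 and the initiation subunit Eif3b lay at -2.14 and -1.66, while Eef1a1 and Eef1b2 lay at 0.78 and 0.78.

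Metabolic lists differed in their counts. None of the 37 complex I subunits, the 25 genes of complexes II to IV or the 15 of ATP synthase passed 2-fold, with medians of 0.17, 0.12 and 0.25. With median centring 24, 19 and 12 of these genes were 2-fold higher and none was lower, so these counts depend on the scaling. In glycolysis 4 of 23 genes were 2-fold lower, the hexokinase Hk1 (-1.34), Pkm (-1.19), Eno1 (-1.18) and Pfkl (-1.05). The median of this list lay -0.45 from all genes with loess and 0.21 with median centring, so its direction is not settled. In fatty acid and cholesterol synthesis 6 of 30 were 2-fold lower, including the regulators Srebf1 (-1.51), Srebf2 (-1.23) and Scap (-1.17) and the synthase Fasn (-1.41), while the sterol enzymes Hmgcs1, Idi1 and Cyp51 lay between 0.52 and 0.71. With median centring 1 gene of this list was 2-fold lower and 4 were higher. Of 38 genes of mTORC1 control and amino acid transport 11 were 2-fold lower and 0 higher. Both subunits of the TSC brake, Tsc1 and Tsc2, were among them (-1.65 and -1.22), and so were the mTORC1 subunit Rptor (-1.14) and the glutamine carrier Slc1a5 (-1.09). Of 38 proteasome genes Psmd3 alone passed 2-fold (-1.25), and with median centring 15 were 2-fold higher and 0 lower.

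Heat shock genes held 5 of 32 members 2-fold higher and 1 lower around a median of 0.04. Hspa1a and Hspa1b, the inducible HSP70 genes that respond to heat and cell stress, read 13.37 in the wild-type pool and 15.77 in the deficient pool and 10.48 in the wild-type pool and 12.57 in the deficient pool, 5.28-fold and 4.23-fold higher. Each gene has 2 probes, which gave 2.40 and 2.30 for Hspa1a and 2.08 and 3.06 for Hspa1b, and on the other array the probes of Hspa1a gave -0.04 and -0.02 and those of Hspa1b -0.06 and 1.12. These genes lie side by side on chromosome 17 as near-identical copies, so their probes may read both. The probes of Hspa1a also overlap in position. The 250 bases before each start are shown for the pair, although probes that may read both copies cannot show that the 2 genes moved together. Whether the marked match has a part in the ratios was not tested. Capitals mark the match to an inverted pair of heat shock units, GAANNTTC, searched together with TTCNNGAA, each its own reverse complement:
Hspa1a, chr17:34972157-34972406 (RefSeq, GRCm38.p6, minus strand): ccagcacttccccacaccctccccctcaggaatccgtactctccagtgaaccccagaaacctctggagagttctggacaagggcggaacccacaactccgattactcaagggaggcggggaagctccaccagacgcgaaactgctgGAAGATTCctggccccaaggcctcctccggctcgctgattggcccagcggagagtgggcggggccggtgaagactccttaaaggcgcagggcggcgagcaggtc
Hspa1b, chr17:34959239-34959488 (RefSeq, GRCm38.p6, minus strand): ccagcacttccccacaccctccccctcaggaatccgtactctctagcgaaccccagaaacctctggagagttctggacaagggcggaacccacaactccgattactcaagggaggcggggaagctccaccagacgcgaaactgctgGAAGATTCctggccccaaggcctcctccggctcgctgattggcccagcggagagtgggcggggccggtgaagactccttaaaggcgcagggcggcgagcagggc
The sequences differ at 3 positions of 250 (98.8% identical), and each holds 1 match, which starts 104 bases before the start. A match is present in 4218 of 32851 RefSeq promoters of this length, 12.8%. Of the other chaperones, Hspb1 (HSP25) read 7.93 in the wild-type pool and 9.20 in the deficient pool, Dnajb4 lay at 1.19 and Hsp90aa1 at 0.81, but Dnajb1, Hsph1 and Bag3, which usually respond to the same stress, lay at -0.30, -0.00 and -0.66, and the factor Hsf1 at -0.84. Of 33 genes of endoplasmic reticulum folding stress P4hb (-1.07) alone passed 2-fold, and with median centring 9 were higher. In the oxidative stress list 3 of 28 were 2-fold higher, the glutathione transferases Mgst1 (1.60) and Gstm5 (1.14) and the quinone reductase Nqo1 (1.04), and the sensor Keap1 was lower (-1.54).

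Of 25 NF-kappaB genes 5 were 2-fold lower and 0 higher, with a median of -0.59. The subunit Rela read 13.85 in the wild-type pool and 12.30 in the deficient pool (2.93-fold lower), Relb lay at -1.08 and the kinase Ikbkb at -1.13. Of 17 TGF-beta pathway genes 4 were lower, the receptor Tgfbr2 at 14.97 in the wild-type pool and 13.69 in the deficient pool, the receptor Acvr1b (-1.20), and the signal transducers Smad3 (-1.58) and Smad1 (-1.17). Of 32 interferon-stimulated genes, a list whose median changed side with median centring, 6 were lower, led by Irf7 at 12.77 in the wild-type pool and 10.88 in the deficient pool, with Oas2 at -1.64 and Stat2 at -1.46, but Isg15, Ifit1 and Ifit3 lay between -0.62 and -0.24 and Ifitm1 was higher (1.12). Of 35 early response genes 6 were lower and 1 higher, and with median centring 1 was lower and 4 higher. Nr4a1, an early gene of T cell receptor signalling, read 15.59 in the wild-type pool and 14.22 in the deficient pool (2.57-fold lower), and Ppp1r15a lay at -1.71. The AP-1 genes Junb and Jund, at -1.05 and -1.07, had the opposite sign with median centring (0.24 and 0.26). Gimap3 and Gimap6, GTPases of lymphocyte survival, were 2-fold lower of 7 Gimap genes (-1.32 and -1.12), and the list median, -0.84, moved to the other side of all genes with median centring. In the Bcl2 family Pmaip1 (NOXA) alone passed 2-fold (1.04), while Mcl1, the survival factor, came close at -0.99 and Bcl2 lay at -0.21.

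Of 51 detected spliceosome and hnRNP genes, 7 were 2-fold lower, a share near the background, and Hnrnpa3 was higher (1.15), around a median of -0.14. With median centring 2 were lower and 12 higher. Prpf8, the core of the catalytic centre, read 13.38 in the wild-type pool and 11.71 in the deficient pool and its other probe gave -2.07, and Sf3b2 and Sf3b3, which recognise the branch point, lay at -1.66 and -1.36. The nuclear RNA Malat1 read 16.41 in the wild-type pool and 14.70 in the deficient pool, and its 4 probes gave between -2.09 and -1.61. On the other array these probes gave between -1.60 and 0.002, with -0.26 from the brightest. In the lysosome list Ctse, an aspartic protease of lymphoid and stomach cells, read 13.001 in the wild-type pool and 15.43 in the deficient pool (5.37-fold higher here and a log2 ratio of -2.22 on the other array), and Asah1, acid ceramidase, lay at 1.39. Psap and Man2b1, a sphingolipid activator and a mannosidase, were lower (-1.32 and -1.30). Of 35 detected lysosome genes 2 were 2-fold higher and 4 lower, the latter a share near the background. With median centring 10 were higher and 2 lower.

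Genes of other cell types and tissues were among the highest and lowest ratios of the array. Granule genes of neutrophils and their precursors were higher, 13 of 21 by at least 2-fold and 0 lower, with a median of 1.39. S100a8 and S100a9, the subunits of calprotectin, read 12.46 in the wild-type pool and 14.79 in the deficient pool and 14.55 in the wild-type pool and 16.80 in the deficient pool, 5.04-fold and 4.76-fold higher, and Camp, Ctsg, Lcn2 and Retnlg lay between 1.94 and 2.41. The receptors of mature neutrophils Cxcr2 and Csf3r lay at 0.34 and 0.10. Mast cell and basophil genes were higher in 6 of 12, 4 of them above background in the deficient pool alone. Of 22 measured genes of that list 12 were detected, so this share depends on the detection filter. Mcpt8 counts among the 6 by its ratio (1.39) but not by its bound, given below. Cpa3 and Mcpt4, a carboxypeptidase and a chymase of mast cells, were at least 5.4-fold and 5.08-fold higher. Cma1, another chymase, read 7.82 in the wild-type pool and 9.97 in the deficient pool, and the basophil proteases Mcpt8 and Prss34 were at least 1.69-fold and 2.01-fold higher, while the receptor Kit lay at 0.29. Prg2, a granule protein of eosinophils, lay at 1.33, Pf4, a platelet chemokine, at 2.51, and Retnla is itself made by macrophages. Other platelet and megakaryocyte genes did not follow Pf4 as a list. Of 16 measured 8 were detected, 2 being 2-fold higher and 1, Itgb3, lower (-1.35), with a median of 0.34. Of 27 natural killer and cytotoxic genes 23 had ratios above 0 and 5 were 2-fold higher, Klrg1, Klri2 (1.21), Klre1, Cd244a and the receptor Ncr1, which read 8.03 in the wild-type pool and 9.04 in the deficient pool. Genes of the killer lectin family are close copies, and their probes may not tell them apart.

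Salivary gland genes were lower, 12 of 19 by at least 2-fold and 0 higher, with a median of -1.67. Of the 19 detected, 6 were above background in the wild-type pool alone, so this share too depends on the detection filter. Amy1, salivary amylase, read 15.67 in the wild-type pool and 11.75 in the deficient pool, 15.1-fold lower, and Dnase1 12.95 in the wild-type pool and 8.49 in the deficient pool. Pip, Cst10 and Prb1 were above background in the wild-type pool alone, at least 6.87-fold, 6.26-fold and 2.76-fold lower. In the wild-type pool of the other array the same Amy1 probe read 9.13 and that of Bpifa2 8.20, so these 2 transcripts were high in this wild-type pool and low in the other. Of the 19 genes 12 were at least 2-fold higher in this wild-type pool than in the other and 0 lower, a count under the same filter. Dcpp1 read 9.19 here and 9.20 there, and 12.28 in the deficient pool of the other array. In a liver secretory list, chosen after its values were seen, 5 of 8 detected genes were 2-fold higher in the deficient pool. Of 22 measured genes of that list 8 were detected, 3 of them through the deficient pool alone, so this share depends on the detection filter. Albumin (Alb), the fetuin Ahsg and the fibrinogen chain Fgg were above background in the deficient pool alone, at least 2.27-fold, 3.44-fold and 1.72-fold higher. Markers of B cells, plasma cells and antigen-presenting cells differed little between the pools, with 1 of 18, 0 of 8 and 0 of 21 genes past 2-fold and medians of -0.06, 0.15 and -0.04. Monocyte and macrophage genes had a median of 0.37, with the mannose receptor Mrc1 higher (1.30) and the scavenger receptor Marco and the growth factor receptor Csf1r lower (-1.53 and -1.20). The part of these cells in the ratios of the T cell lists was not tested.

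**Figure D3:**
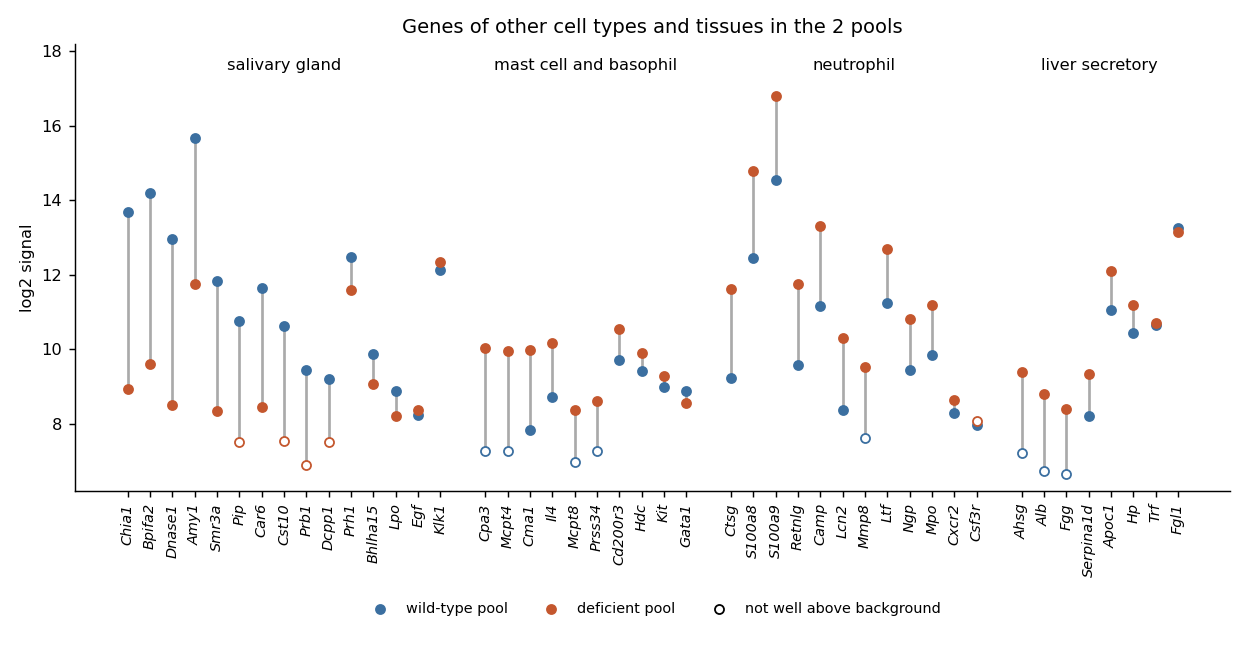
Log2 signal (y axis) of genes of salivary gland, mast cells and basophils, neutrophils and liver in the wild-type pool (blue) and the deficient pool (orange), with open circles for signals not well above background. Amy1 reads 15.67 in the wild-type pool and 11.75 in the deficient pool, while Cpa3, Mcpt4, Alb and Ahsg are open in the wild-type pool and filled in the deficient pool.

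Genes measured by several probes gave a check within the array, although probes of a gene share the same RNA and are not replicates. Some probes of a gene also overlap in position, as for Retnla and Hspa1a, and their agreement is little check on probe effects. Of 5072 genes with 2 or more detected probes, 66 were 2-fold higher on all of them (1.3%) and 188 were 2-fold lower on all (3.71%), while by the brightest probe alone 140 and 594 passed. Probes of 1499 genes (29.6%) had both signs, and those of 9 genes passed 2-fold in opposite directions. Myo6, an unconventional myosin, was the most even of the genes far above 0, with 2.23 and 2.21 from its 2 probes and 12.27 in the wild-type pool and 14.49 in the deficient pool by the brighter. Also higher on all probes were Mgst1, Chek1, a checkpoint kinase (1.48 and 1.61), Hpgd, which degrades prostaglandins (1.43 and 1.73), and Ccl24, an eotaxin (1.40 and 1.89). Lower on all probes were Il17ra, the receptor chain for IL-17 (-2.39 and -2.01), Grk6, a kinase of chemokine receptors (from -2.51 to -1.89), Cd6, Satb1, Rela, Vav1, Itgal and the deacetylase Hdac7 (-1.59 and -1.40).

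**Figure D4:**
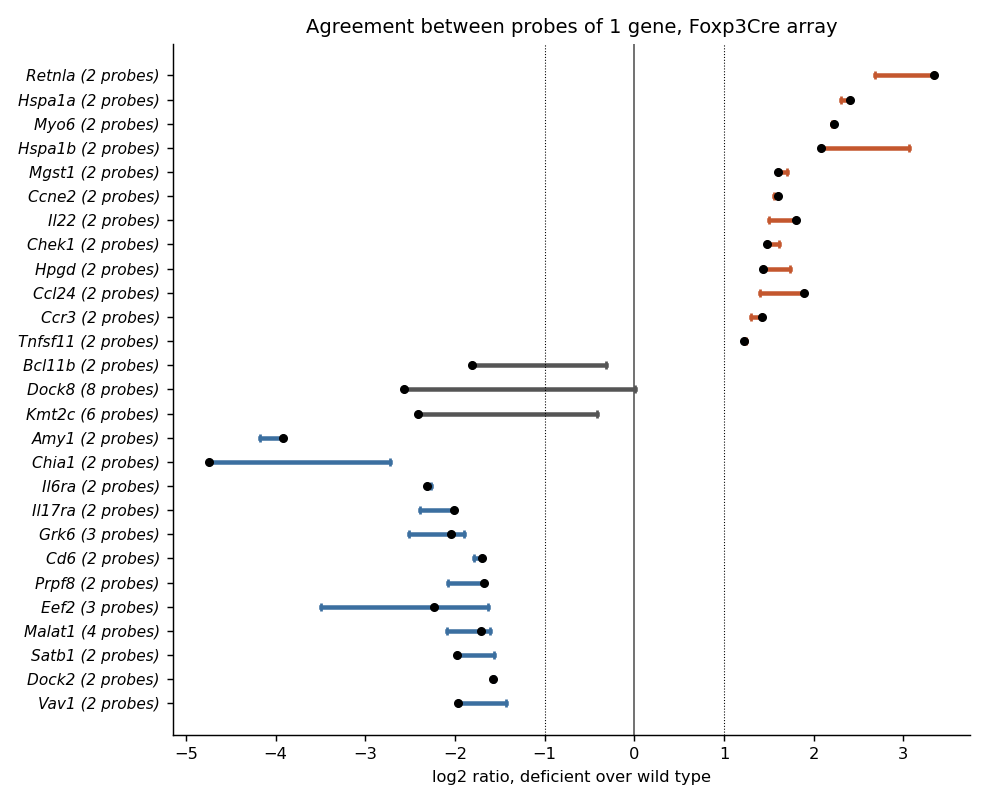
Range of log2 ratios (x axis) over the detected probes of named genes, with ticks at the lowest and highest probe, a black point at the brightest probe and dotted lines at 2-fold. The 12 orange genes stay above 2-fold and the 12 blue genes below it on every probe, whereas the probes of Bcl11b, Dock8 and Kmt2c reach from beyond 2-fold to within it. The probes of Retnla overlap in position, and so do those of Hspa1a.

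The ratio also went with the kind of transcript and with base composition of the probe. Among 10772 genes read from RefSeq mRNA probes 9.47% were 2-fold lower, and among 1897 read from full-length cDNA clones 26.04%, with medians of -0.05 and -0.47. On the other array these shares were 10.1% and 16.98%. Probes with 29 or more G and C bases of 60 had a median of -0.28, with 1.199% of 3335 genes 2-fold higher and 14.4% lower. Probes with 21 or 22 had a median of 0.07, with 4.81% of 3722 higher. Probes with up to 20, for 433 genes, had a median of -0.30, with 17.3% lower, so the ratio did not fall steadily with these bases. Bcl11b was read by a probe in the group of 29 or more, with 32 such bases. The part of probe composition in any ratio above was not tested.

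With 3 scalings of the array, loess, median centring and the scanner software's ratio, 9 of 62 lists had medians on both sides of that of all genes. These were Gimap, actin, glycolysis, spliceosome, lysosome, interferon-stimulated, endoplasmic reticulum, pan T cell and translation factor genes. The lists of T cell receptor signalling, IL-6 and IL-4 receptors, NuRD, chromatin methylation, naive genes, effector Treg genes, mitosis, neutrophil, mast cell and salivary genes kept 1 side under each. Counts moved more than sides. With median centring 6 of 37 chromatin genes, 2 of 23 NuRD genes, 3 of 38 mTORC1 genes, 2 of 25 NF-kappaB genes and 1 of 17 TGF-beta genes were 2-fold lower, and 17 of 34 effector Treg genes, 21 of 40 mitosis genes and 17 of 32 heat shock genes were 2-fold higher. The oxidative stress list then had 12 of 28 higher and the homing receptors 11 of 34, with 1 lower. Of the 446 genes 2-fold higher and the 1749 lower, 18 and 46 were 2-fold in the opposite direction on the Cd4Cre array, a difference that has no test with 1 array each. Ctla4, at 1.22 here and -3.48 there, was among the 18. Of all genes read from RefSeq mRNA probes 10.1% were 2-fold lower on the Cd4Cre array, and of those read from full-length cDNA clones 16.98%. The 18 of 446 are fewer than either share, so this count does not set the raised genes apart.

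**Figure D5:**
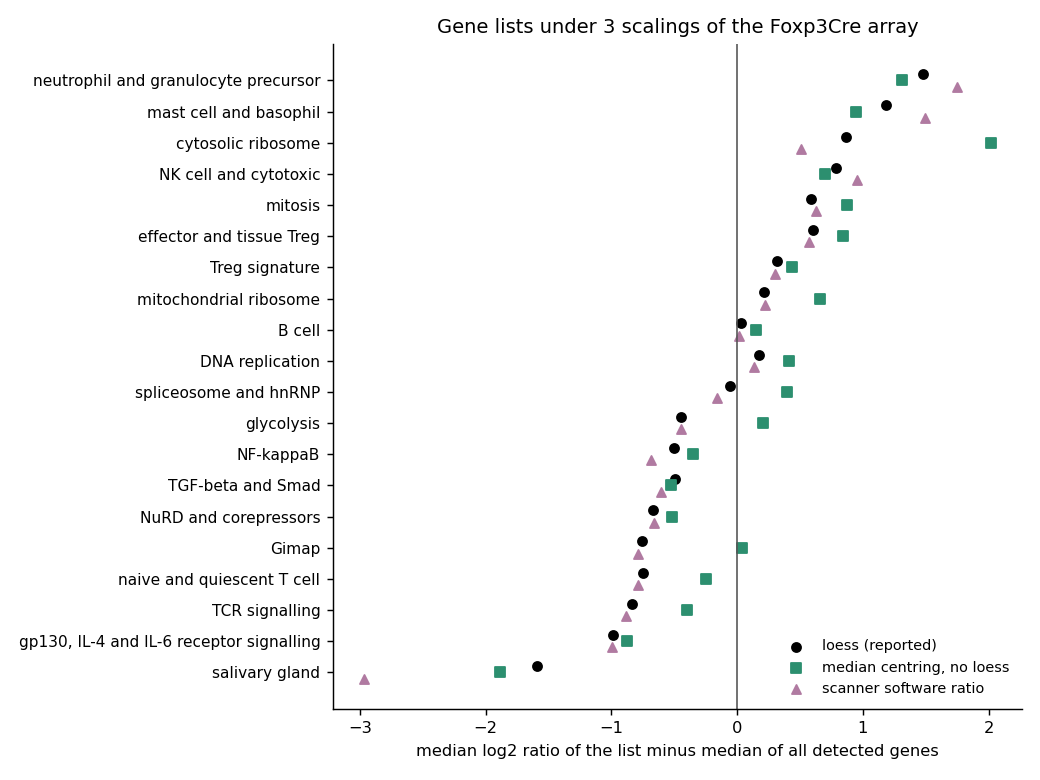
Median log2 ratio of 20 gene lists minus the median of all detected genes (x axis) with loess (black), median centring without loess (green) and the scanner software's ratio (purple). Cytosolic ribosomal genes move from 0.86 to 2.02 with median centring and Gimap genes from -0.76 to 0.04, and glycolysis and spliceosome genes also change side, while the IL-6 and IL-4 receptor list lies between -0.999 and -0.873.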

How the data were processed

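The array was scanned and read by Agilent Feature Extraction, version 10.7.3.1 per the file headers and 10.5.1 per the submitters' processing notes. For each spot the authors deposited the mean and background intensity of both channels, the software's log10 ratio with its error and p-value, and flags. The authors' deposited value table equals that log10 ratio (largest difference 0), on no other scale or centring. Probe coordinates in the deposited files are on mm9.

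From the intensities, background was corrected with normexp (offset 50), log2 ratios were normalized by loess with control spots at weight 0, and channel signals by Aquantile over both arrays, in limma 3.58.1 under R 4.3.3. The 155 outlier spots were dropped, and repeated spots averaged. Each gene took the values of the probe with the highest mean intensity over the 2 arrays, and was detected if either channel of that probe was flagged well above background. Through RefSeq names of GRCm38.p6, 25001 probes were named by an accession, 5960 by a current symbol and 1767 by an older one, with 8446 left under the name in the file. The step was tested on simulated ratios.

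The text names Bcl11b, Foxp3, genes among the 30 highest and 30 lowest, list members, genes 2-fold on every probe, and neighbours within 5 Mb. The members and lists were chosen with earlier results of these data known, and some lists after their values were seen. Some genes this rule selects are not reported here. Alternatives tried were no background subtraction, offset 10, plain subtraction, median centring, the software's ratio and its p-value under 0.01, other filters on dim probes, other choices among a gene's probes, and keeping outlier spots. Some genes counted in the lists are not reported by name here.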

Additional observations from a re-analysis of the deposited data

Results flagged for a closer look

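At 23 genes the Foxp3Cre and Cd4Cre arrays lay at least 2-fold from equality in opposite directions with both pools well above background on both arrays and a RefSeq mRNA probe, 12 of them higher here and 11 lower. The 8 with the largest smaller ratio are given. Of all genes read from RefSeq mRNA probes 3.21% were 2-fold higher and 9.47% lower here, and 10.1% were 2-fold lower on the Cd4Cre array. With 1 array for each Cre system, the difference between the arrays was not tested. Higher here and lower there were Ctla4 (log2 ratio 1.22 here and -3.48 on the Cd4Cre array), the chemokine receptor Ccr3 (1.43 and -1.47), Sh3gl3 (1.39 and -1.45), Adamdec1 (1.36 and -1.34) and the macrophage mannose receptor Mrc1 (1.30 and -1.76). Lower here and higher there were the mucin Muc20 (-1.59 and 2.05), the scavenger receptor Marco (-1.53 and 1.38) and the mannosidase Man1a2 (-1.25 and 2.16).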

How the results depend on the processing

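Median centring in place of loess changed the counts most: 2043 genes were then 2-fold higher and 1022 lower, 66.7% of them higher, Bcl11b lay at -1.12, and 310 and 62 genes were 2-fold higher and lower on all probes. It shifts the median of all genes by 0.25. With the software's ratio 1152 genes were higher, 36.3% of those past 2-fold, and 158 on all probes, and with plain subtraction 31.3% were higher. The mean over its probes put Bcl11b at -1.07. Among lists at least 0.5 from all genes and named genes past 2-fold, signs turned only with median centring, for the Gimap list (0.039 from all genes) and for Cd5 (0.069), Ddit4 (0.13), Gimap6 (0.068), Junb (0.24), Jund (0.26), Klf2 (0.25), Myh9 (0.038), Rpl4 (0.012), Selplg (0.068) and Son (0.026), while the other 316 of 326 named genes past 2-fold kept their sign under every alternative that gave them a value. Of the 120 named genes 2-fold higher, 97 stayed so under every alternative, and of the 206 lower 78 did. No paired analysis was possible because there is 1 array and the result comes from no test. Signal over background limits 1627 genes seen in the wild-type pool alone and 106 in the deficient pool alone to bounds. The cause of these changes was not tested.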
